A study of Mus musculus with 2 samples.

Results

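Toll-like receptor transcripts were measured in splenic marginal zone B cells divided by their surface CD80, a costimulatory protein. The genes described are 10 of the 21829 gene symbols in the table: the receptors Tlr1, Tlr2, Tlr3, Tlr4, Tlr6, Tlr7 and Tlr9, the receptor-like gene Cd180 with its partner Ly86, and the chaperone Unc93b1. They were taken by symbol, each had 1 row, and each had a mean above 5 FPKM (fragment numbers divided by transcript length and by library size), so that none was lost to a filter on low values. The CD80high and the CD80low population had 1 mRNA library each, made from spleens of male wild-type C57BL/6 mice that had received no treatment. The sources used here do not give the age or number of the mice, nor any further sort marker. With 1 library a group there is no spread between replicates and no test: each difference below compares 2 libraries.

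Toll-like receptors are innate sensors of microbial molecules. Toll-like receptors 1, 2, 4 and 6 act mostly at the cell surface on bacterial lipoproteins and lipopolysaccharide, while 3, 7 and 9 sense nucleic acids inside endosomes, which they reach with the help of UNC93B1. CD180 resembles Toll-like receptor 4 outside the cell but lacks its signalling domain, and is held at the surface of B cells with MD-1, the product of Ly86. Marginal zone B cells are known for their rapid response to ligands of these receptors.

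The 2 libraries expressed the same set of these genes, in the same order and at close levels. Unc93b1 had the highest level, followed by Cd180, Ly86, Tlr1, Tlr9, Tlr7, Tlr3, Tlr4, Tlr6 and Tlr2. The levels spanned 537 to 5.61 FPKM in CD80high and 552 to 6.21 FPKM in CD80low. Unc93b1 lay above 99.4% of gene symbols in CD80high and Tlr2 above 63.6%. Without replicates it cannot be said whether neighbours in this order, such as Tlr4 and Tlr6, differ beyond their spread.

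**Figure D1:**
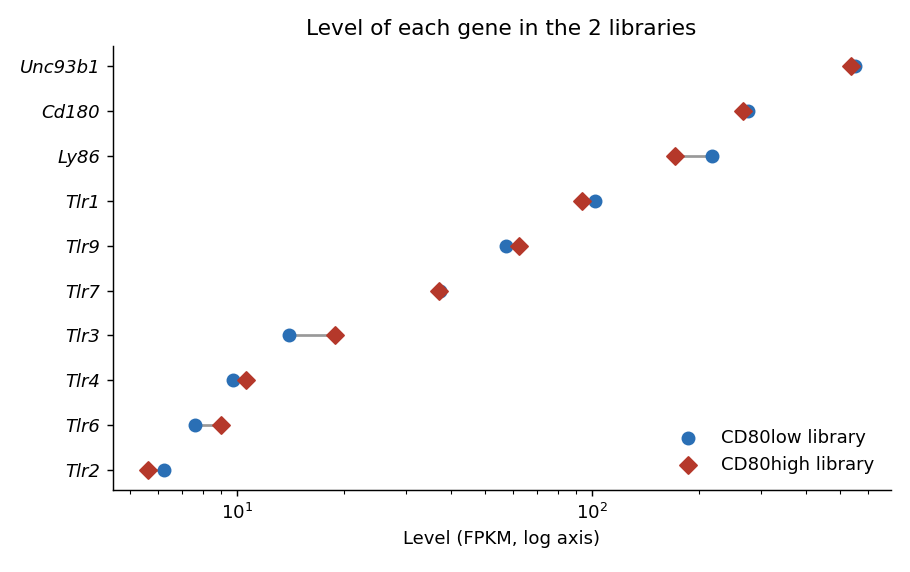
Level of each gene in FPKM (log axis) in the CD80high library (diamonds) and the CD80low library (circles), 1 library a group with no error bars. The 10 genes keep the same order in the 2 libraries, and Tlr3 and Ly86 show the widest gaps.

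Differences are given as log2((CD80high FPKM + 1)/(CD80low FPKM + 1)), called the ratio, or as a plain fold of the FPKM values. None of the 10 genes was at least 1.5-fold apart by the ratio, where 2.4% of the 9955 genes with a mean FPKM of 1 or more were. On the same scale 1 value was at least 25% above the other for 2 of the 10 genes, Tlr3 and Ly86, and for 13.2% of all genes. The ratio was above 0 for 4 of the 10 genes, against 46.4% of all genes. Setting each library to their mean FPKM total raised these shares to 9 of 10 and 73.8%. The median ratio was -0.02 for the 10 genes and -0.02 for all genes. The p-values of the 10 genes ran from 0.165 (Ly86) to 0.997 (Tlr7) in the authors' deposited table, and each q-value was 0.999. No p-value of the 10 was at most 0.05 in the authors' deposited table, where 2.4% of 10814 rows had such a value. Those p-values were also made from 1 library a group.

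**Figure D2:**
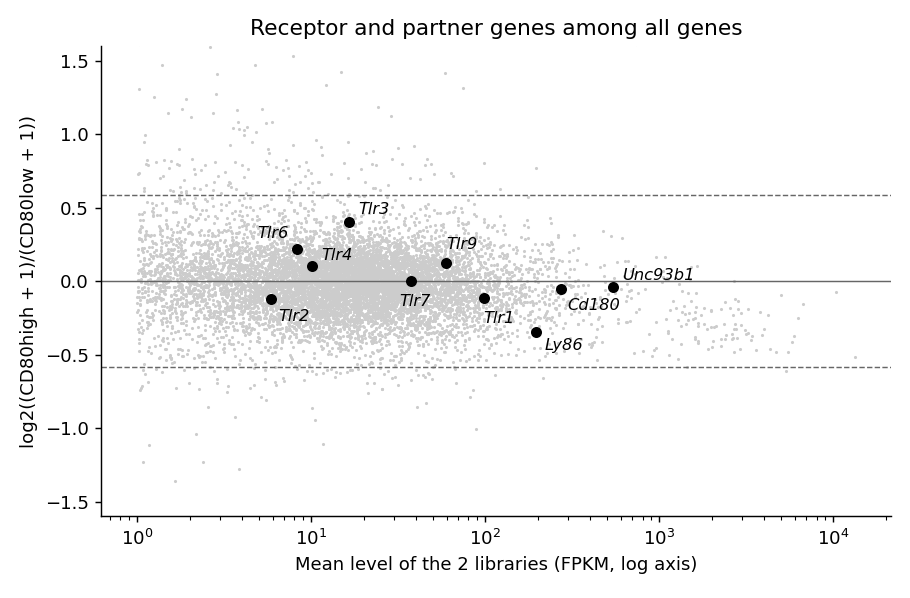
Ratio of each gene, log2((CD80high + 1)/(CD80low + 1)), against its mean FPKM (log axis) for 9955 genes (grey) and the 10 receptor and partner genes (black), with dashed lines at 1.5-fold; 8 genes lie beyond the axis limit of 1.6. The 10 genes lie within the 1.5-fold lines, with Tlr3 at 0.41 and Ly86 at -0.35 as the outermost.

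Among the endosomal receptors, Tlr3, the sensor of double-stranded RNA, had the widest difference of all 10 genes. Its level was 18.9 FPKM in CD80high against 14.0 FPKM in CD80low, a fold of 1.35 with an approximate 95% counting interval of 1.23 to 1.48. Its ratio of 0.41 was higher than that of 96.6% of all genes, and ran from 0.33 to 0.55 over the alternatives tried. Tlr9, which senses unmethylated CpG DNA, was listed at 62.1 and 57.1 FPKM (1.09-fold, 1.05 to 1.13). Tlr7, which senses single-stranded RNA, was equal in the 2 libraries at 37.2 FPKM each, a fold of 0.999 with an interval of 0.951 to 1.05. The higher value in CD80high was kept by Tlr3 and Tlr9 under every alternative tried, while the sign of the difference in Tlr7 was not fixed. Of the alternatives, only the adjustments for transcript length could have turned a higher value in CD80high into a lower one. The intervals cover counting error only, from fragment numbers estimated as described under the processing. That of Tlr3 rests on a median coding transcript of 2417 bases where its longest has 4407. In bulk RNA, fewer cells of a type and less RNA per cell cannot be told apart.

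As a share of the summed FPKM of the 7 receptors, Tlr3 made up 7.96% in CD80high and 6.00% in CD80low. Tlr9 made up 26.2% and 24.4%, and Tlr7 15.7% and 15.9%. The level of Tlr9 over that of Tlr7 was 1.67 in CD80high and 1.53 in CD80low, and the level of Tlr3 over that of Tlr7 was 0.508 and 0.377. These within-library ratios are not touched by the scaling between the libraries. Against Tlr7, both Tlr3 and Tlr9 had the higher proportion in CD80high. The summed level of Tlr3, Tlr7 and Tlr9 was 118 FPKM in CD80high against 108 FPKM in CD80low, and that of Tlr1, Tlr2, Tlr4 and Tlr6 was 119 against 125.3 FPKM. Unc93b1, the chaperone that brings these receptors to endosomes, was listed at 537 and 552 FPKM, a fold of 0.974 (0.953 to 0.995), and was lower in CD80high as deposited but higher after rescaling to the mean total or adjusting for transcript length. Its level exceeded the summed level of Tlr3, Tlr7 and Tlr9 by 4.55-fold in CD80high and 5.10-fold in CD80low.

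Tlr3 (chromosome 8, 45395665 to 45411080, minus strand, GRCm38, the assembly of mm10) has 9 annotated transcripts, 7 of them coding. An antisense gene, Gm45542, covers 381 of its exon bases on the other strand. The library kit was directional, but the sources used here do not say whether strand entered the counting, so reads of the pair may not be separable. Tlr9 (chromosome 9, 106222598 to 106226883, plus strand) has 1 transcript and Tlr7 (chromosome X, 167304929 to 167330558, minus strand) has 6. Of the coding sequence of Tlr7 and of Tlr9, 99.9% lies in 1 exon, against 68.3% for Tlr3. Unc93b1 (chromosome 19, 3935186 to 3949340, plus strand) spreads its coding sequence over 11 exons.

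Tlr3 is also used by macrophages and dendritic cells, and markers of these cells were higher in CD80high. Of 15 macrophage and monocyte markers 14 were above 0, and all 14 were higher in CD80high, with summed levels of 21.4 FPKM in CD80high and 10.8 FPKM in CD80low. Of 10 dendritic cell markers 9 were above 0 and 8 were higher, with sums of 5.97 and 3.99 FPKM. With no filter, 34.1% of all 21829 gene symbols were higher in CD80high, those at 0 in both libraries included. A mean of 1 FPKM was reached by 5 of the 15 and 2 of the 10 markers. All of those were higher in CD80high, against 46.4% of all genes at that level. Other markers lay near 0, such as Siglec1 at 0.0116 and 0.0112 FPKM. Among these markers, Cd68 (9.16 and 6.81 FPKM), Itgam (2.57 and 0.912 FPKM), Flt3 (2.15 and 1.94 FPKM) and Itgax (1.88 and 1.04 FPKM) had the highest levels. Fcgr1 and Xcr1 were listed at 0 in both libraries, and Clec9a, a marker of the dendritic cells known for Tlr3, at 0.114 and 0.0610 FPKM. Without the 2 most abundant of each list, the macrophage and monocyte markers summed to 9.62 and 3.09 FPKM and the dendritic cell markers to 1.94 and 1.01 FPKM. The gap in Tlr3 itself was 4.87 FPKM. The part of these cells in the difference was not tested. Neutrophil markers summed to 3.78 and 0.522 FPKM, with Ly6g and Cxcr2 at 0. The 6 B cell markers summed to 4340 and 4852 FPKM. The 8 marginal zone markers, led by Cr2 and Mzb1, summed to 2111 and 1994 FPKM. Without Cd79a and Cd79b, the other 4 B cell markers summed to 2068 and 2095 FPKM, with 2 of them higher in CD80high. Without Cr2 and Mzb1, the other 6 marginal zone markers, all higher in CD80high, summed to 908 and 791 FPKM.

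**Figure D3:**
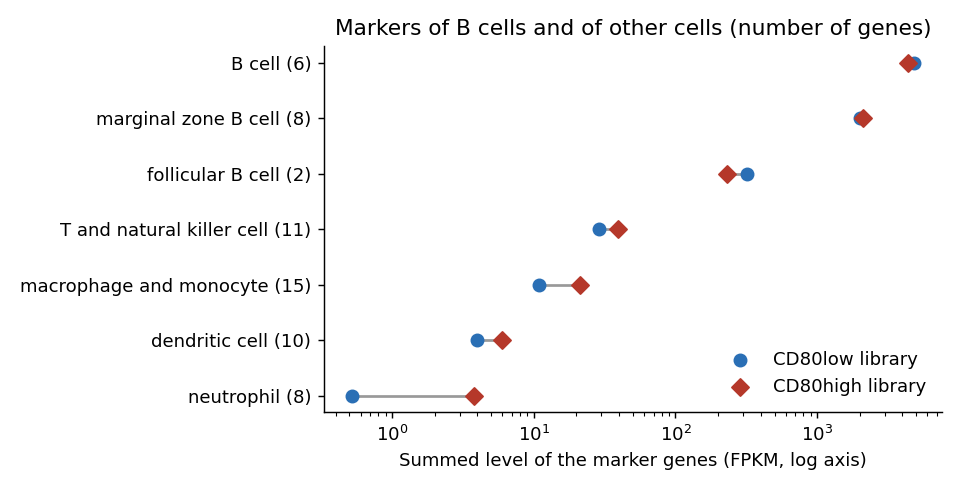
Summed FPKM (log axis) of marker genes of 7 cell types in the CD80high library (diamonds) and the CD80low library (circles), with the number of genes in brackets. B cell and marginal zone sums are at least 1994 FPKM in both libraries, and those of non-B cells are at most 39.3 FPKM and higher in CD80high.

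The surface receptors were close in the 2 libraries and unequal among themselves. Tlr1, whose product pairs with that of Tlr2 on triacylated lipoproteins, was by far the most abundant, at 94.0 FPKM in CD80high against 101.7 FPKM in CD80low, a fold of 0.924 (0.894 to 0.956). Tlr2 was listed at 5.61 and 6.21 FPKM (0.903-fold, 0.789 to 1.03). Both were lower in CD80high as deposited and higher after rescaling to the mean total, with ratios then of 0.04 and 0.01. Tlr6, the other partner of Tlr2, for diacylated lipoproteins, was listed at 9.01 and 7.60 FPKM (1.19-fold, 1.03 to 1.37). Tlr4, the lipopolysaccharide receptor, was listed at 10.6 and 9.76 FPKM (1.08-fold, 0.976 to 1.20). Tlr4 and Tlr6 had the higher value in CD80high under every alternative tried. Only the adjustments for transcript length could have reversed this.

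The level of Tlr1 over that of Tlr2 was 16.8 in CD80high and 16.4 in CD80low. Tlr6 over Tlr2 was 1.61 and 1.22, and Tlr1 over Tlr6 was 10.4 and 13.4. Tlr1 and Tlr2 thus kept their proportion while that of Tlr6 to both of them was higher in CD80high. The approximate number of fragments behind Tlr6 was 442 in CD80high and 369 in CD80low, against 6642 and 7115 for Tlr1. The numbers for Tlr6 rest on a median coding transcript of 2061.5 bases where the longest has 3677.

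The separation of Tlr1 from Tlr6 depends in part on how fragments were assigned, because the genes share a part of their sequence. They lie on the minus strand of chromosome 5, Tlr1 at 64924679 to 64933563 and Tlr6 at 64952031 to 64960097, with 18467 bases between them. Of the windows of 50 bases along the Tlr1 transcript, 16.6% also occurred in a Tlr6 transcript, and 12.6% of those along Tlr6 occurred in other genes. Read in the direction of the transcripts, none of the other 8 genes shared a window of 50 bases with another annotated gene. The reverse direction was not searched, and there Gm45542 covers 381 exon bases of Tlr3 and Mast4 182 of Cd180. The longest identical run of the 2 transcripts was 229 bases, within the coding sequence of each. It is printed here in capitals with 20 bases of flank from the GENCODE M21 transcripts, since fragments that fall inside it cannot be given to either gene by sequence; the bases are 1678 to 1946 of the Tlr1 transcript and 1632 to 1900 of the Tlr6 transcript.
Tlr1: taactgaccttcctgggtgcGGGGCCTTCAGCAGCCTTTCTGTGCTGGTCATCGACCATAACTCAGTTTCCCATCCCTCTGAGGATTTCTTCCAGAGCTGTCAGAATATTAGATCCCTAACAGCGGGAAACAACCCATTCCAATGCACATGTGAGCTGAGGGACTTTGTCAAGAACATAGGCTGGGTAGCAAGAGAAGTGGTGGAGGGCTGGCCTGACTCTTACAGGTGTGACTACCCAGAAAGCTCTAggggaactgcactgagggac
Tlr6: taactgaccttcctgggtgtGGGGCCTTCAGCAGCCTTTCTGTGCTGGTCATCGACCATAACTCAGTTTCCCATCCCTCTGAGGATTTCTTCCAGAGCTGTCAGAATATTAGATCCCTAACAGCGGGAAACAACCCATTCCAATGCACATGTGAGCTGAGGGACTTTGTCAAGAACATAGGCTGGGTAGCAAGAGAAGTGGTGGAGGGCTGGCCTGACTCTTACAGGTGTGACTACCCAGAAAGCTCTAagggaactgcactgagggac
The part of this sharing in the Tlr6 value was not tested. Tlr6 had a p-value of 0.694 in the authors' deposited table, and Tlr4 one of 0.669.

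Tlr2 (chromosome 3, 83836272 to 83841767, minus strand) has 1 transcript, and the coding sequences of Tlr1, Tlr2 and Tlr6 lie each within 1 exon. Tlr4 (chromosome 4, 66827584 to 66930284, plus strand) holds 89.7% of its coding sequence in 1 exon. Of the receptors outside the 10 genes, Tlr5, the flagellin receptor, and Tlr11 were listed at 0 in both libraries. Tlr12 had 0.829 FPKM in CD80high against 0.759 FPKM in CD80low, Tlr13 at 0.116 and 0.0225 FPKM, and Tlr8 at 0 and 0.0302 FPKM. Tlr8 lies 40599 bases from Tlr7. None of these 5 reached a mean of 1 FPKM.

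Cd180 and Ly86, the pair that forms the RP105 complex on B cells, stood far above Tlr4 and its partner Ly96 in both libraries. Cd180 had 266 FPKM in CD80high against 275 FPKM in CD80low, a fold of 0.965 (0.927 to 1.005), an interval that rests on a median coding transcript of 842 bases where the longest has 2650. Its sign changed with the scaling, to a ratio of 0.10 after rescaling to the mean total and 0.07 after adjusting for the median transcript length. Ly86 was listed at 172 and 218 FPKM, 1.27-fold higher in CD80low (1.22 to 1.32). Its ratio of -0.35 was lower than that of all but 6.35% of genes. Cd180 over Ly86 was 1.55 in CD80high and 1.26 in CD80low.

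Ly86 was lower in CD80high under every alternative tried, but by different amounts. Its transcript has 1134 bases, and genes of like length were themselves lower in CD80high, with a median ratio of -0.12 by median and -0.24 by longest coding transcript. Less those medians, the ratio of Ly86 was -0.22 and -0.11. After rescaling to the mean total it was -0.19. Cd79a and Cd79b, the signalling chains of the B cell receptor and the most abundant B cell markers, were also lower in CD80high, at 1284 against 1574 FPKM and 987 against 1183 FPKM. Fcer2a, a follicular B cell marker, was listed at 58.6 and 118.5 FPKM. The part of transcript length or of follicular cells in the Ly86 difference was not tested.

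The level of Cd180 was 25.1 times that of Tlr4 in CD80high and 28.2 times in CD80low, and that of Ly86 was 11.7 and 17.1 times that of Ly96 (14.6 and 12.7 FPKM), which encodes MD-2. Tlr4 over Ly96 was 0.723 and 0.766. Cd14, the lipopolysaccharide coreceptor of myeloid cells, was listed at 0.165 FPKM in CD80high and at 0 in CD80low. Ly86 (37345208 to 37419036) and Cd180 (102693558 to 102739629) lie on the plus strand of chromosome 13. The locus that the authors' table gives for Cd180 ends at 103334460 and takes in Mast4 on the other strand, which shares 182 exon bases with Cd180 and was listed at 16.3 and 14.6 FPKM.

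**Figure D4:**
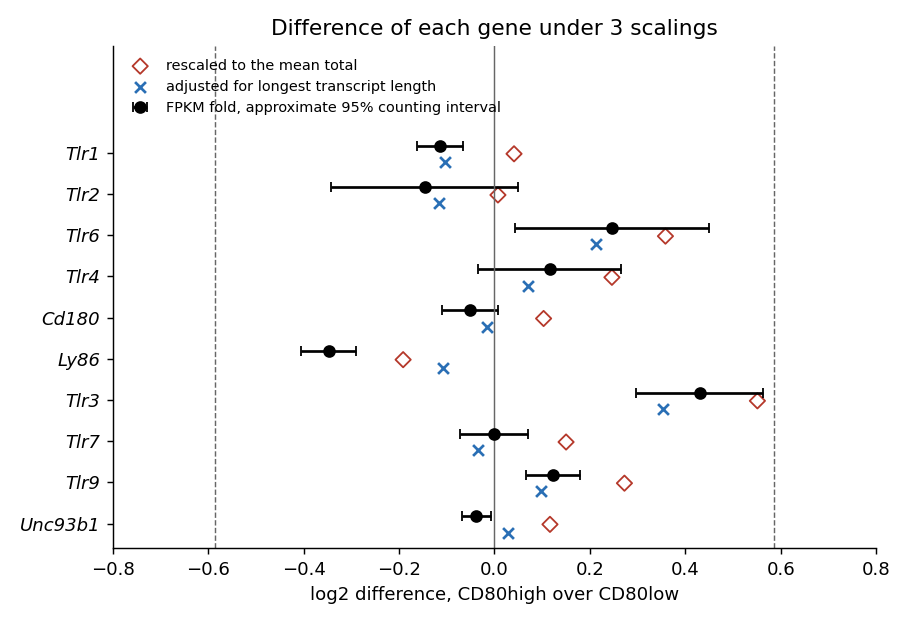
Difference of each gene between the libraries (log2, CD80high over CD80low): the FPKM fold with its approximate 95% counting interval (black), the ratio after rescaling to the mean total (diamonds) and after adjusting for the longest coding transcript (crosses), with dashed lines at 1.5-fold. Tlr3, Tlr4, Tlr6 and Tlr9 lie above 0 and Ly86 below 0 in each, while Tlr1, Tlr2, Tlr7 and Cd180 move above 0 by rescaling and Unc93b1 by either.

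The upstream sequences of the genes at the ends of the range, Tlr3 and Ly86, and of Tlr9, the most abundant endosomal receptor, are shown from RefSeq (GRCm38.p6), each the 250 bases before the annotated start. The table held 7 of the 10 genes. The RefSeq starts of Tlr3 and Ly86 lie inside their GENCODE genes. A search on both strands for the TATA box TATAAA, the octamer ATGCAAAT, the PU.1 core GAGGAA and an interferon regulatory factor pattern, GAAA repeated after any 2 bases, found these in 12.4%, 1.6%, 23.3% and 2.98% of 32851 such windows. Capitals mark a match, and the motifs were chosen with the sequences in view.
Tlr3, chr8:45410381-45410630, minus strand: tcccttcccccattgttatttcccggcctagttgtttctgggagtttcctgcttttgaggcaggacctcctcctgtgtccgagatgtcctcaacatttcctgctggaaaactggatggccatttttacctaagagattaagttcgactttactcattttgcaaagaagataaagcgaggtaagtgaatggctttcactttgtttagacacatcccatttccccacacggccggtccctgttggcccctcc
Ly86, chr13:37345095-37345344, plus strand: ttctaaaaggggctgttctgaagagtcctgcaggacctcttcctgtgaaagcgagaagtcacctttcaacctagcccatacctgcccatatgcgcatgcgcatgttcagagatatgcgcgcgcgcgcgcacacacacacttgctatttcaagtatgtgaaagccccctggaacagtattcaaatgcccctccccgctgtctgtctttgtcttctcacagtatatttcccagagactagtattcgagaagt
Tlr9, chr9:106222348-106222597, plus strand: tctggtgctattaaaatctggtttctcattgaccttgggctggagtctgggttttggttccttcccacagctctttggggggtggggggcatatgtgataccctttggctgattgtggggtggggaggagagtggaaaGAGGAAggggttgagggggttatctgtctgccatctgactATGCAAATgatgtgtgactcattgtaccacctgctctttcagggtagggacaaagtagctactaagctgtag
The Tlr9 window held GAGGAA from 112 bases and the octamer from 72 bases before the start. The windows of Tlr3 and Ly86 held none of the 4 motifs. Of the other windows, 1 of Tlr6 held the interferon regulatory factor pattern as a pair of overlapping matches, the other of Tlr6 held 3 matches of the TATA box letters, and 1 of Tlr1 held GAGGAA from 23 bases before the start; those of Tlr2 and Cd180 held none. A match is a description of the letters and not a measured site.

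Most genes of the wider pathway were also less than 1.5-fold apart; those that were not were an inhibitor and 5 response genes. Of 83 other genes listed for the pathway, all but Tasl were matched to a row by the listed symbol, and 72 had a mean FPKM of 1 or more. Of these 72, 45 had a higher and 27 a lower value in CD80high, with a median ratio of 0.06, where 46.4% of all genes were higher. With equal totals 64 of the 72 were higher, where 73.8% of all genes were. At 1.5-fold there were 5 higher and 1 lower, 8.33% of the 72, against 2.4% of all genes (1.51% higher and 0.894% lower); the list holds Cd80, the sort marker, and genes known from these libraries to differ. Without the response genes the count was 1 of 58.

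By role, 8 of 15 measured accessory and processing genes had a higher value in CD80high, among them the receptor chaperone Hsp90b1 (258 against 242 FPKM), while Ctss, an endosomal protease that cuts the receptors, had 376 against 490 FPKM. The share over all genes was 46.4%, and none of the splits by role was tested against it. Of 20 adaptors and kinases, 13 were higher, with a median ratio of 0.08, and none reached 1.5-fold. The most abundant of them were Pik3ap1, an adaptor to PI3 kinase (57.03 against 65.0 FPKM), and Ikbkb, the kinase that releases NF-kappaB (59.2 against 62.7 FPKM). Of 11 transcription factors, 6 were higher, led in level by Irf4 (198 against 148 FPKM) and Irf8 (155 against 174 FPKM). After rescaling to the mean total the median of the 72 genes was 0.21, where that of all genes was 0.12, and 13 of the 15 accessory genes, 18 of the 20 adaptors and kinases and 10 of the 11 transcription factors were higher, against 73.8% of all genes.

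Of 12 inhibitors, 8 had a higher value in CD80high, or all 12 after rescaling to the mean total, against 46.4% and 73.8% of all genes. At 1.5-fold there was 1 of the 12, against 2.4% of all genes. That gene was Tnfaip3, which encodes the ubiquitin-editing enzyme A20, a brake on NF-kappaB, with 81.2 FPKM in CD80high against 49.0 FPKM in CD80low. Its fold was 1.66, with a counting interval of 1.58 to 1.74, and the authors' deposited table gave it p = 0.003 and a q-value of 0.515. Lyn (201 against 198 FPKM) and Bank1 (154 against 165 FPKM), the most abundant of the list, differed less. Of the 14 measured response genes, those past 1.5-fold were Ccl5, Zbtb32, Il10 and Cd80 with higher values in CD80high and Il12a with a lower one. Il10, an anti-inflammatory cytokine gene, had 12.2 against 3.55 FPKM, and Il12a, a subunit of interleukin 12, 7.05 against 16.4 FPKM. Ccl5 had 15.4 against 2.601 FPKM and Zbtb32, a repressor of B cell responses, 4.35 against 0.605 FPKM. The CD80low values of Ccl5 and Zbtb32 rest on about 25.2 and 17.9 fragments. Their folds had wide counting intervals, 3.87 to 9.42 for Ccl5 and 4.37 to 12.5 for Zbtb32. Cd69 (264 against 245 FPKM) and Nfkbid (164 against 142 FPKM), which are induced on B cell activation, were the most abundant. Ccl5 is a chemokine gene of T and natural killer cells as well, and 10 of 11 markers of those cells were higher in CD80high, with sums of 39.3 and 28.7 FPKM. Lck (15.5 and 15.2 FPKM) and Prf1 (10.01 and 10.6 FPKM) make up most of these sums, and the other 9 markers, all higher in CD80high, summed to 13.8 FPKM there against 2.897 FPKM in CD80low. Of the 11 markers, 5 had a mean of 1 FPKM or more, and 4 of these were higher. The share of all genes that were higher was 46.4% at that level and 34.1% with no filter. The part of T and natural killer cells in the Ccl5 value was not tested.

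**Figure D5:**
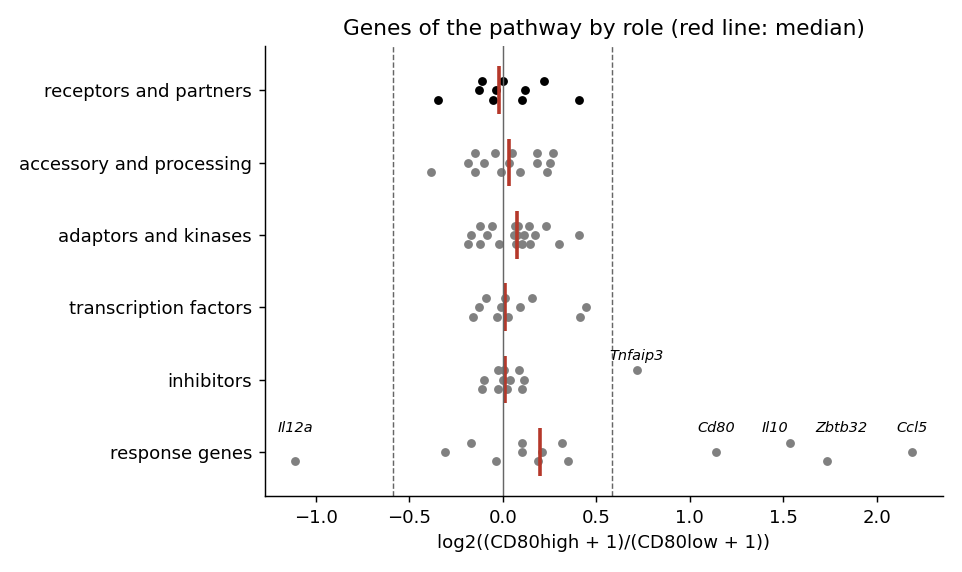
Ratio of each gene with a mean FPKM of 1 or more, log2((CD80high + 1)/(CD80low + 1)), grouped by role, with the median of each group as a red line and dashed lines at 1.5-fold. The receptors and partners (black) have a median of -0.02 and none past 1.5-fold, and the labelled genes are Tnfaip3 and 5 response genes; after rescaling to the mean total the median of the receptors and partners is 0.13.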

How the data were processed

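The authors deposited 1 value a gene and library. The headers do not name its unit; it is taken as FPKM because the submitters' processing notes list Cufflinks 2.2.1, Cuffnorm and Cuffdiff, beside STAR 2.6, FastQC 0.11.5 and build mm10. The p-value and q-value columns are the authors', per the file headers. The table has 21853 rows, all protein coding; 24 repeated symbols were summed, and no gene described here was among the 5 that differ between the sheets. No count is given in the files. Depth was approximated from the steps of low FPKM values in transcripts above 2000 bases, as 25650000 fragments for CD80high and 25400000 for CD80low. The low values followed these steps only loosely (mean cosine to whole steps 0.341 and 0.317, where 1 is exact), and the method was chosen after the values were seen. It gave exact conditional (Clopper-Pearson) intervals of each fold from the median coding transcript length. FPKM totals were 551206 and 613742. Positions and transcripts are from GENCODE M21. Ratio, interval and depth scripts were tested on simulated data. The simulation used the transcript lengths that the intervals assume, so it cannot show whether those lengths hold in these libraries. The genes named were all 10 receptors and partners; in each pathway list those past 1.5-fold and the 2 of highest mean; in each marker list the 2 of highest mean and those at 0. Other genes are named where a result turns on them. The genes, lists and alternatives were chosen with earlier results of these data known. Python 3.11.15 was used, with matplotlib 3.10.9, scipy 1.17.1, pandas 2.3.3 and numpy 2.4.6.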

Additional observations from a re-analysis of the deposited data

How the results depend on the processing

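With the pseudocount at 0.1 or 5, without a filter, with a filter of 5 FPKM and with the values of the other sheet, no ratio of the 10 genes moved by more than the counting error of its fold or changed sign. Most of this outcome was fixed in advance. A pseudocount cannot change a sign, and the 10 genes pass the filters and have the same values in both sheets. Rescaling to the mean total adds 0.16 (log2) to each FPKM ratio. After it, 9 of the 10 genes were higher in CD80high, against 73.8% of all genes. Their median ratio was 0.13 and that of the pathway genes 0.21, against 0.12 for all genes. Adjusting for the median transcript length gave the 10 genes a median of 0.073, against 0.0015 for all genes. By the longest transcript the medians were 0.0061 for the 10 genes and 0.0028 for all genes. With 25% in place of 1.5-fold as the threshold, 2 of the 10 genes and 11 of the 72 pathway genes were past it, against 13.2% of all genes. Of 100 recomputed ratios of the 10 genes 12 moved by more than that error, those of Tlr3, Tlr9 and Ly86 among them. The sign changed in 10, and in none of the ratios of Tlr3, Tlr4, Tlr6, Tlr9 or Ly86. For Tlr3, Tlr4, Tlr6 and Tlr9, only the adjustments for transcript length could have changed it. The adjustment by longest transcript was chosen after seeing the data, because the median coding transcript of Cd180 (842 bases) is shorter than its longest (2650 bases). No paired analysis was possible because there is 1 library for each population, which also leaves no replicate to omit. The files cannot show how much the animals or library preparations vary.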

Other observations

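Beyond the genes past 1.5-fold, 5 pathway genes were at least 25% apart, and were named after their values were seen. Rel, an NF-kappaB subunit, Irf4, a factor of plasma cell differentiation, Ikbke, a kinase of the interferon branch, and Cd86, a costimulatory gene, were higher in CD80high, with ratios of 0.44, 0.41, 0.41 and 0.35. Ctss was lower, at -0.38. Each kept its direction after rescaling to the mean total, where the ratios were 0.60, 0.57, 0.55, 0.50 and -0.23 in the same order. In all 11 of the 72 pathway genes, 15.3%, were at least 25% apart, against 13.2% of all genes.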
